A study of Mus musculus with 12 samples.

Results

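Glucuronidation and sulfation were described in mouse liver through 10 genes named by symbol: the UDP-glucuronosyltransferases Ugt1a1, Ugt2b1, Ugt2b5, Ugt2b34, Ugt2b35 and Ugt2b36, the cytosolic sulfotransferases Sult1a1, Sult2a7 and Sult3a1, and Ugdh, which encodes UDP-glucose dehydrogenase. All 10 were found among the 26031 genes with counts in some library. Read counts in all 12 libraries were at hand for 9 of them, and for Ugt2b36 in 6 libraries. The genes were set beside 27 other UGT and SULT genes with counts in livers of high-fat-diet mice.

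UDP-glucuronosyltransferases are membrane enzymes of the endoplasmic reticulum that join glucuronic acid to bilirubin, steroids, bile acids and drugs, so that the products dissolve in water and can be exported into bile or blood. Cytosolic sulfotransferases add a sulfate group from the donor PAPS to phenols, hydroxysteroids and amines. Ugdh makes UDP-glucuronic acid, the donor that every glucuronosyltransferase uses, and both kinds of enzyme are abundant in hepatocytes, where the pregnane X receptor (PXR) and the constitutive androstane receptor (CAR) are known regulators of several of them.

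RNA was taken from C57BL/6N mouse liver, with 3 samples in each of 4 groups. The HFD PCN group (replicates 5, 11 and 27) was fed a high-fat diet for 15 weeks and received pregnenolone 16α-carbonitrile, a synthetic steroid that activates rodent PXR, at 50 mg/kg into the peritoneum each day for 4 days. The HFD Vehicle group (15, 23 and 55) had the same diet and daily injections of 30% DMSO in corn oil, the HFD group (4, 30 and 38) had the diet and no injection, and the Chow group (8, 17 and 19) had regular chow and no injection. All mice were 6 weeks old when the diets began, and the comparisons ask what the compound, the injection and the diet each did to the livers. The labels do not say that each sample is a separate animal, so p-values measure the spread between these samples. In whole liver RNA, fewer cells of a type and less RNA per cell cannot be told apart.

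Summed counts were 19.8 to 22.0 M in the HFD Vehicle libraries and 38.2, 24.0 and 7.5 M reads in HFD replicates 4, 30 and 38. Totals estimated from size factors were 11.5 to 35.4 M with PCN and 15.1 to 22.3 M in Chow, with an error of up to 16.6% where it could be checked. HFD replicate 38, the shallowest library, was the lowest of its group for 10 of the 10 genes (for 9 on the CPM scale, per total count of the library), HFD Vehicle replicate 55 for 8 of 10, and HFD PCN replicate 11 for 7 of 9. The part of these libraries in each result was not tested, and values without each library are given where they matter. Of 7 genes known to respond to PCN, 6 rose with PCN over vehicle by the authors' deposited calls, among them Cyp3a11 at 353949 to 903845 normalized counts in HFD PCN against 3844 to 21636 in HFD Vehicle. A normalized count is a read count divided by the library's size factor, and it is used here for every level unless another scale is named.

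The 5 Ugt2b genes lie in a row on chromosome 5. In GRCm38 Ugt2b34 (ENSMUSG00000029260) spans chr5:86889767-86906937 on the minus strand, and Ugt2b1 (ENSMUSG00000035836) follows at chr5:86916638-86926530 on the same strand. Ugt2b35 (ENSMUSG00000035811) spans chr5:87000860-87013275 on the plus strand. Ugt2b36 (ENSMUSG00000070704) at chr5:87065927-87092555 and Ugt2b5 (ENSMUSG00000054630) at chr5:87124960-87140318 are again on the minus strand. Ugdh (ENSMUSG00000029201) lies apart from them at chr5:65413221-65435949. Ugt1a1 (ENSMUSG00000089960) spans chr1:88211959-88218997, Sult1a1 (ENSMUSG00000030711) chr7:126672865-126676432, Sult2a7 (ENSMUSG00000094156) chr7:14465051-14494230 and Sult3a1 (ENSMUSG00000069668) chr10:33857721-33879532.

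Some of these genes share sequence with a neighbour, which bears on how their reads could be counted. Ugt1a1 has 2224 bases of exon, of which 385 are its own and the rest overlap exons of other Ugt1a genes and of Gm20528, since the mouse Ugt1a genes splice different first exons to common ones. Of the 50-base stretches of Ugt2b5 transcripts, 41.7% also occur in another gene, with Ugt2b38 first, and the coding sequences of Ugt2b5 and Ugt2b38 are 97% identical. Sult3a1 shares 6.15% of its stretches with Sult3a2 (90.9% coding identity) and Sult1a1 shares 6.58% with Gm6939, whereas the share was 0% for Ugt2b1 and Sult2a7 and at most 1.84% for Ugt2b34, Ugt2b35, Ugt2b36 and Ugdh. How the counting treated shared reads and strand is not given in the sources used here, so the split of counts between Ugt1a1 and the other Ugt1a genes and between Ugt2b5 and Ugt2b38 is uncertain.

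The promoters of the 5 Ugt2b genes are shown because they hold a common stretch of letters. RefSeq (GRCm38.p6) gave promoters for 9 of the 10 genes, from 250 bases before to 50 bases after the annotated start. The motif GTTANNNNTTAAC was searched on both strands after these sequences had been seen. It occurred in the 5 Ugt2b promoters, in 7 of the 10 Ugt2 family genes with a promoter and in 62 of 32851 promoters in all (0.189%), and it did not occur in those of Ugt1a1, Sult1a1, Sult3a1 and Ugdh. Each line gives bases 100 to 41 before the RefSeq start, 5′ to 3′ on the strand of the gene, with the motif in capitals. It begins 89 bases before the start in Ugt2b1, 73 in Ugt2b34, 70 in Ugt2b35, 64 in Ugt2b36 and 61 in Ugt2b5.
Ugt2b1 (chr5:86926544-86926603, minus strand): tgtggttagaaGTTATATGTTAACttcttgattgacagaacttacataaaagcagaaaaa
Ugt2b34 (chr5:86906978-86907037, minus strand): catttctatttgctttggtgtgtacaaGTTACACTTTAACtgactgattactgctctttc
Ugt2b35 (chr5:87000760-87000819, plus strand): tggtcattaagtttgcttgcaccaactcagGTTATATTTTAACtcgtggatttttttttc
Ugt2b36 (chr5:87092596-87092655, minus strand): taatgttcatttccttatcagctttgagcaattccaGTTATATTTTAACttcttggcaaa
Ugt2b5 (chr5:87140381-87140440, minus strand): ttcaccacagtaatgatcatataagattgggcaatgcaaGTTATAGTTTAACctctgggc

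Pairs of the hexamers AGGTCA or AGTTCA, in direct repeat with 3 or 4 bases between them or everted with 6, are the spacings at which PXR is known to bind. None of these pairs was found in the 9 promoters on either strand, and they were rare in all 32851 (0.0122%, 0.0274% and 0.00913%). A single hexamer stood in the windows of Ugt1a1, Ugt2b1, Ugt2b5, Ugt2b35 and Ugt2b36, and in 27.7% of all promoters; a pair also counts as a single hexamer. A match or its lack describes these letters in these windows only.

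Levels were compared between genes per kilobase of exon, in the 6 libraries where all genes had counts. By whole exon length, Ugt2b36 and Ugt2b5 ranked first of 20 UGT genes in HFD livers. They stood at 4517 ± 892 and 4467 ± 640 normalized counts per kilobase (SD, n = 3), with ranges that overlapped. Ugt3a2 came next (2702 ± 531), followed by Ugt1a1 (2272 ± 310), Ugt2b34 (2170 ± 414) and Ugt2a3 (2165 ± 757.9), whose ranges overlapped with each other. Ugt2b1 stood at 1782 ± 514 and Ugt2b35 at 943 ± 145. By whole exon length the 6 glucuronosyltransferases under study made up 71% of the summed level of the 20 genes. Its whole count divided by only the exon bases that no other gene shares gave Ugt1a1 13125 normalized counts per kilobase in HFD livers. That value is above every other UGT gene, but no reads were counted again over those bases. Ugt1a8 and Ugt1a10, which share the common exons, had 9.31 and 8.5 normalized counts in HFD, against 5053 for Ugt1a1. Reads of the common exons were thus not counted for every gene that holds them. Per kilobase of whole exon Ugt1a1 may therefore stand too low, and it may rank first. In the same livers Sult1a1 was the first of 16 sulfotransferases (2618 ± 370 per kilobase, 41.3% of their summed level), ahead of Sult2a8 (2017 ± 1428) and Sult1d1 (1299 ± 547), and the ranges of Sult1a1 and Sult2a8 overlapped. In HFD Vehicle livers the order of means was another: Sult2a8 (3755 ± 1178 per kilobase) stood above Sult1a1 (2347 ± 797) and Sult1d1 (2307 ± 1214.5). Among the UGT genes, Ugt2b5 (4697 ± 1456) and Ugt2b36 (4464 ± 1604) again came first by whole exon length in HFD Vehicle. Ugt1a1 had 15966 there per kilobase of unshared exon. Sult2a7 had 69.4 ± 29.6 per kilobase in HFD Vehicle and 32.7 ± 19.3 in HFD, and Sult3a1 had 5.07 ± 2.18 and 3.51 ± 3.05, so both were minor transcripts.

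**Figure D1:**
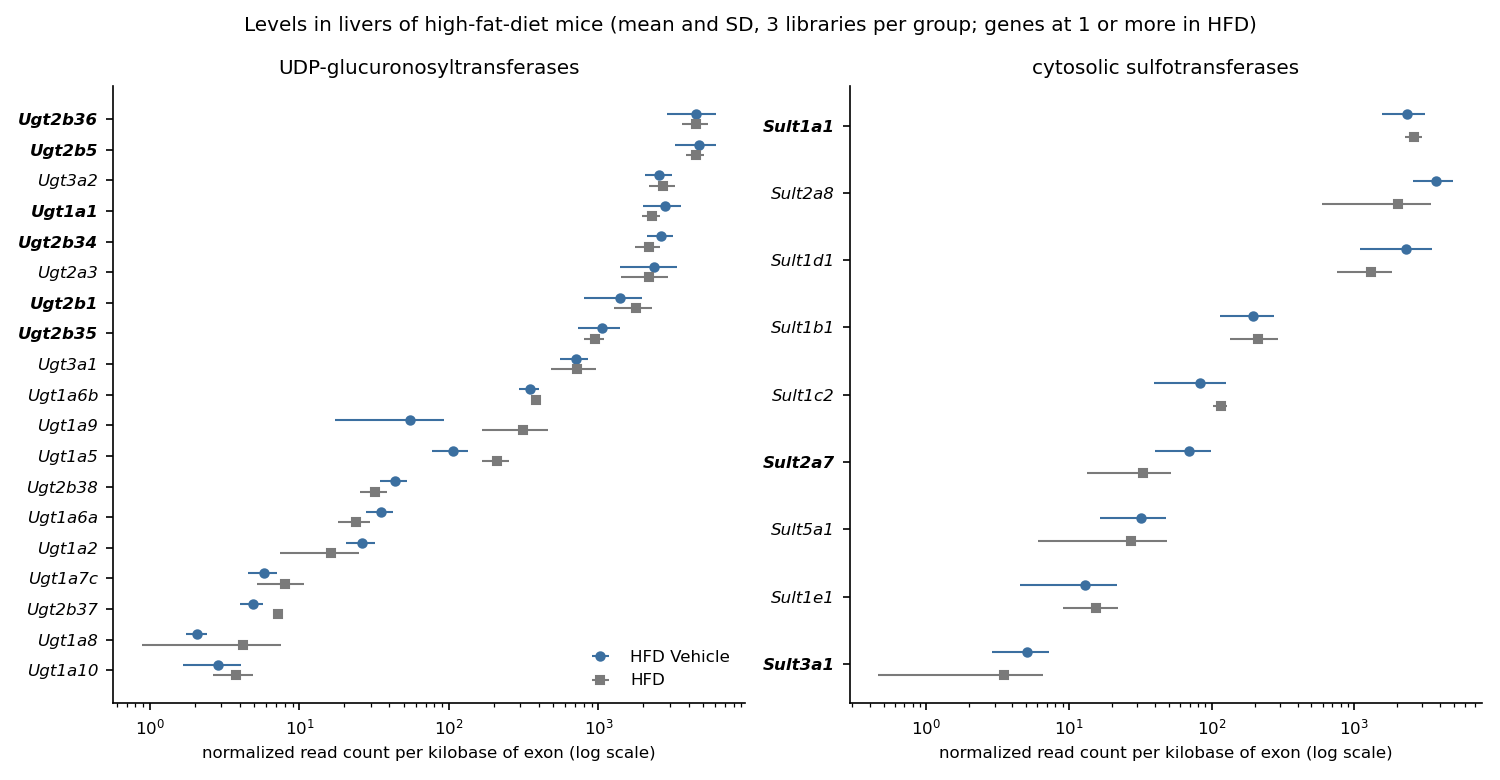
Levels of UGT and SULT genes in normalized read counts per kilobase of exon (log axis) in HFD Vehicle livers (circles) and HFD livers (squares), as mean and SD of 3 libraries; the genes under study are in bold. Ugt2b36 and Ugt2b5 head the UGT genes in both groups by whole exon length. Ugt1a1 would stand above them per kilobase of the exon bases it does not share. Among the SULT genes Sult2a8 is first in HFD Vehicle and Sult1a1 in HFD, and Sult2a7 and Sult3a1 lie far below them.

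Both the PCN and the vehicle mice were injected, so their comparison bears on the compound. Of the 10 genes 6 rose with PCN and 0 fell in the authors' deposited table: Ugt1a1, Ugt2b35, Sult1a1, Sult2a7, Sult3a1 and Ugdh. Over all 25882 genes tested the authors called 1.07% higher and 0.641% lower with PCN. Ugt2b1, Ugt2b5, Ugt2b34 and Ugt2b36 were not called. The median log2 ratio of the 9 genes with counts was 1.11, beside 0.04 over the 2227 genes with counts in 12 libraries, a set made of genes called in some table. A test of the listed genes' counts with edgeR called 0 of the 6 and 25 of the 442 listed genes (0.0966% of all genes). All 6 had an unadjusted p under 0.05, as did 442 of 442 listed genes, which the deposited test had selected from the same counts. Leaving out 1 library at a time in edgeR gave 2 of the 10 genes without HFD PCN replicate 11, where 36 of the 442 listed genes were called. It gave 0 without each of the other 5, where 7 to 17 were called. A fit of the 4 groups together, over genes with counts in 12 libraries, called 3 of the 9 (Ugdh, Ugt2b35 and Sult3a1). It called 153 of the 2227 genes fitted (0.591% of all genes).

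Against the uninjected HFD livers 8 genes rose with PCN and 0 fell in the authors' deposited table, the 6 above with Ugt2b34 and Ugt2b5, where 1.90% of 25659 genes were called higher and 1.25% lower. The median log2 ratio was 1.33, beside 0.01 over the 2227 genes. Both comparisons use the same PCN libraries. In edgeR 3 of the 8 passed (Sult2a7, Ugt1a1 and Ugt2b35), as did 189 of the 809 listed genes (0.737% of all genes). Of the 8, 5 passed without HFD PCN replicate 11, 1 without HFD replicate 38 and 0 without each of the other 4 libraries. Those fits called 192, 73 and 18 to 45 of the 809 listed genes. The fit of 4 groups called 5 of the 9 genes with counts (Ugdh, Ugt2b35, Sult3a1, Ugt1a1 and Sult2a7). It called 281 of the 2227 genes fitted (1.10% of all genes).

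Against Chow, where diet, injection and compound all differ, 7 genes rose with PCN (Ugt1a1, Ugt2b34, Ugt2b35, Sult1a1, Sult2a7, Sult3a1 and Ugdh) and 1 fell (Ugt2b1) in the authors' deposited table. That table called 4.43% of 25101 genes higher and 3.67% lower. The median log2 ratio of the 9 genes was 1.27, beside 0.44 over the 2227 genes. In edgeR 4 of the 8 passed (Sult2a7, Ugt1a1, Sult3a1 and Ugdh), beside 826 of the 2032 listed genes, a similar share (3.29% of all genes). Of the 8, 6 passed without HFD PCN replicate 11, 2 without HFD PCN replicate 27 and 1 without HFD PCN replicate 5 or each Chow library. Those fits called 774, 278 and 216 to 257 of the 2032 listed genes. The fit of 4 groups called 5 of the 9, the same 4 and Ugt2b35. It called 1167 of the 2227 genes fitted, a similar share (4.65% of all genes).

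Without PCN the picture was narrower. Between HFD Vehicle and HFD, edgeR called 0 of the 9 genes it tested and 0.00726% of 13775 genes. None of the 9 had an unadjusted p under 0.05 in edgeR, where 1718 of the 13775 genes did. The authors' deposited table called 0 of 10 (1 at an unadjusted p under 0.05). It called 0.281% of 26015 genes higher and 0.511% lower with vehicle. The median log2 ratio of the 10 genes was 0.12, beside 0.02 over 13655 genes with a mean of at least 10 normalized counts. Between HFD Vehicle and Chow, Sult2a7 rose and Ugt2b1 and Ugt2b5 fell in the authors' deposited table (1.72% of 25522 genes called higher and 1.38% lower). Between HFD and Chow, Ugt2b1 and Ugt2b5 fell and 0 rose (2.81% of 25258 genes called higher and 2.05% lower). The median log2 ratios of the 9 genes were -0.03 with vehicle and -0.21 without injection, beside 0.01 and 0.04 over the 2227 genes.

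In edgeR 0 of these 3 and 0 of these 2 calls passed. It called 117 of the 790 listed genes between HFD Vehicle and Chow (0.458% of all genes) and 154 of 1226 between HFD and Chow (0.610%). The 3 and the 2 had an unadjusted p under 0.05, as did 789 of 790 and 1221 of 1226 listed genes. Leaving out HFD replicate 30 gave 1 called gene between HFD and Chow, Ugt2b1, where 113 of the 1226 listed genes were called. Leaving out each other library gave 0 in either comparison. Those fits called 11 to 64 of the 1226 listed genes between HFD and Chow and 2 to 95 of the 790 between HFD Vehicle and Chow. The fit of 4 groups called 1 of the 9 genes between HFD Vehicle and Chow, again Ugt2b1, and 0 between HFD and Chow. Of the 2227 genes fitted it called 234 (0.917% of all genes) and 190 (0.752%). Between HFD and Chow 2 of the 9 genes had an unadjusted p under 0.05 in that fit, beside 1203 of the 2227 genes fitted.

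**Figure D2:**
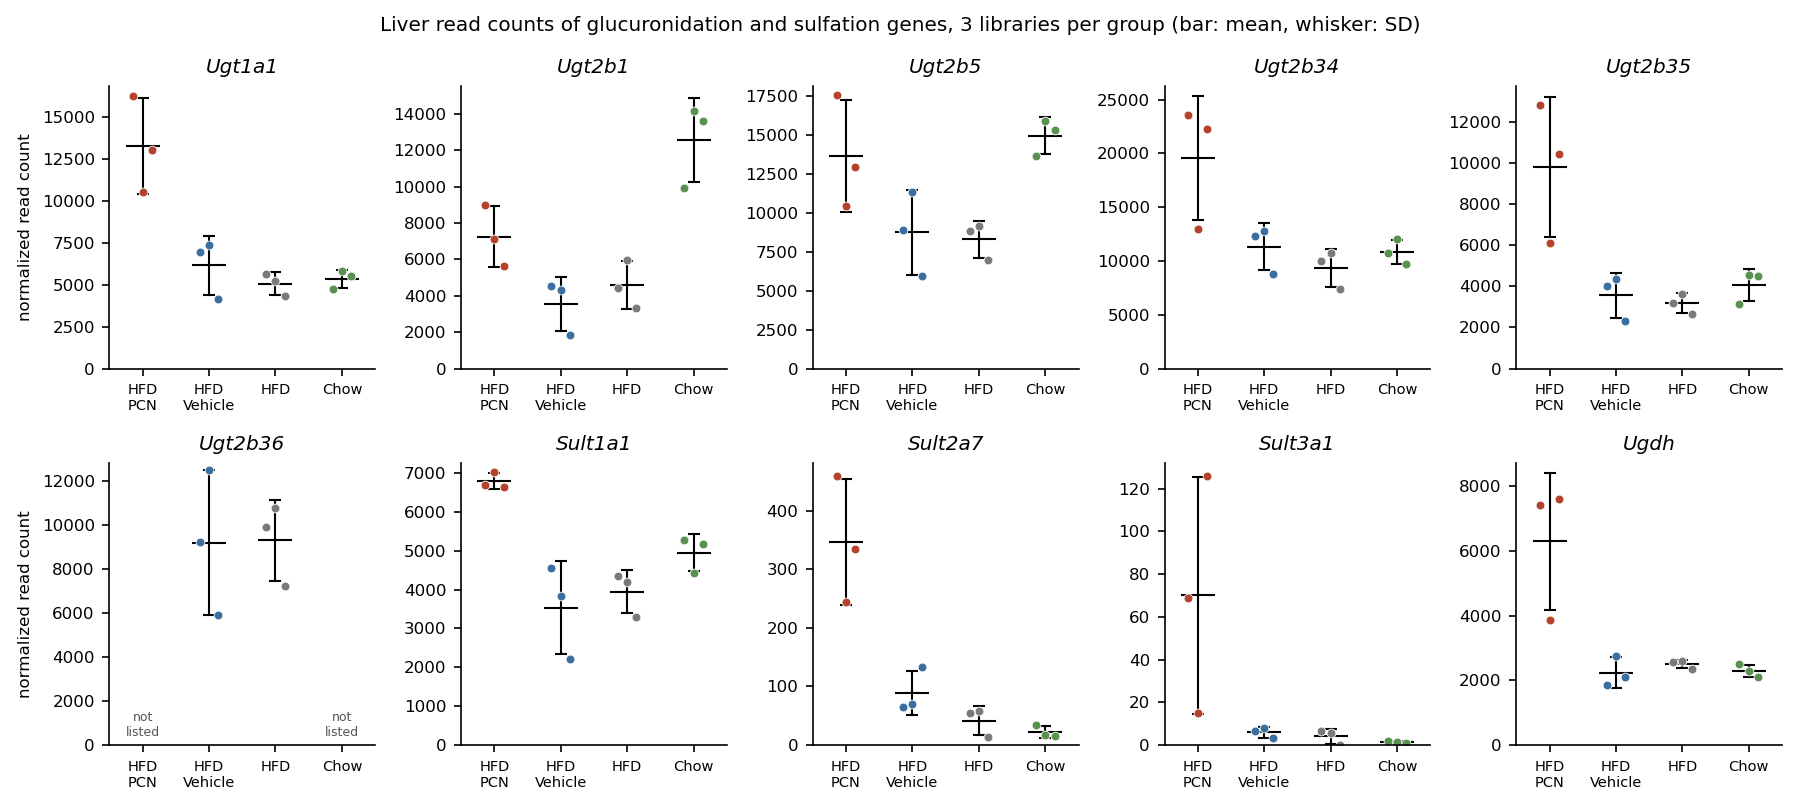
Normalized read counts of each gene in every library (points), with the mean and SD of 3 libraries, for HFD PCN, HFD Vehicle, HFD and Chow from left to right; each panel has its own linear axis from 0. Sult2a7, Ugt1a1, Ugt2b35 and Ugdh are highest with PCN in all 3 libraries, while Ugt2b1 and Ugt2b5 have their highest group means in Chow.

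Ugt1a1 encodes the enzyme that glucuronidates bilirubin. It had 16226, 10538 and 13036 normalized counts in HFD PCN replicates 5, 11 and 27, 6919.5, 7384 and 4137 in HFD Vehicle replicates 15, 23 and 55, 5644, 5221 and 4295 in HFD replicates 4, 30 and 38, and 4717, 5786.5 and 5493 in Chow replicates 8, 17 and 19. Every PCN library lay above all 9 others, and the other 3 groups overlapped. With PCN it rose 2.16-fold over vehicle (13266.5 ± 2851 against 6147 ± 1756, SD, n = 3; adjusted p = 0.00336 in the authors' deposited table, 0.227 in edgeR). It rose 2.63-fold over HFD (adjusted p = 1.42e-09 in the authors' deposited table, 0.0339 in edgeR) and 2.49-fold over Chow (2.74e-11 and 0.0152). It was called between no other groups.

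Other genes of the Ugt1a locus, which share the last exons with Ugt1a1, were also called. Ugt1a9, whose human counterpart acts on phenols, rose 12.4-fold with PCN over vehicle (1503 ± 367 against 121 ± 83.1 normalized counts, n = 3) and Ugt1a5 rose 3.5-fold (816 ± 239.7 against 233 ± 62.1), with adjusted p of 1.29e-16 and 1.05e-07 in the authors' deposited table. Over HFD, Ugt1a9 rose 2.20-fold and Ugt1a5 1.78-fold (adjusted p = 0.00875 and 0.0266 in the authors' deposited table). Between HFD Vehicle and HFD, Ugt1a9 was 5.64-fold lower (121 ± 83.1 against 683 ± 320.6) and Ugt1a5 1.97-fold lower, past the test in the authors' deposited table (adjusted p = 2.24e-05 and 0.0255) and not in edgeR (0.192 and 0.215). Ugt1a1 stood at 6147 ± 1756 in HFD Vehicle and 5053 ± 690 in HFD, a ratio of 1.22 that was not called. Whether Ugt1a1 and Ugt1a9 differed in their response was not tested.

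Ugt2b35 had the largest PCN ratios of the Ugt2b genes with counts. It had 12808, 6104 and 10434 normalized counts in HFD PCN replicates 5, 11 and 27, 4010, 4349 and 2286 in HFD Vehicle replicates 15, 23 and 55, 3207, 3634 and 2661 in HFD replicates 4, 30 and 38, and 3152.5, 4542 and 4499 in Chow replicates 8, 17 and 19. The lowest PCN library, replicate 11, was still above the highest library without PCN. The gene rose 2.76-fold over vehicle (9782 ± 3399 against 3548 ± 1107, n = 3; adjusted p = 8.30e-04 in the authors' deposited table, 0.194 in edgeR). It rose 3.09-fold over HFD (1.34e-07 in the authors' deposited table, 0.0453 in edgeR) and 2.41-fold over Chow (1.12e-05 and 0.0523).

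Ugt2b34 came next over HFD and over Chow, whereas over vehicle Ugt2b1 had the larger ratio (2.04). It had 23572, 12973 and 22236 normalized counts in HFD PCN replicates 5, 11 and 27, 12353, 12800 and 8809 in HFD Vehicle replicates 15, 23 and 55, 9954.5, 10767 and 7353 in HFD replicates 4, 30 and 38, and 10735, 12037.5 and 9756 in Chow replicates 8, 17 and 19. HFD PCN replicate 11 lay just above the highest vehicle and Chow libraries, and the other 2 PCN libraries lay far above them. The gene rose 2.09-fold over HFD (adjusted p = 0.00124 in the authors' deposited table, 0.159 in edgeR) and 1.81-fold over Chow (0.00158 and 0.126). Over vehicle the ratio was 1.73 and the gene was not called.

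Ugt2b1, whose rat counterpart glucuronidates testosterone and morphine, had the largest difference from Chow of the Ugt2b genes with counts, both in HFD and in HFD Vehicle. It had 8984.5, 7101 and 5649 normalized counts in HFD PCN replicates 5, 11 and 27, 4521, 4305 and 1845 in HFD Vehicle replicates 15, 23 and 55, 4453, 5966 and 3331.5 in HFD replicates 4, 30 and 38, and 9922.5, 14166 and 13633 in Chow replicates 8, 17 and 19. All 9 libraries of the high-fat diet lay below the lowest Chow library. Relative to Chow the gene fell 2.74-fold in HFD (4584 ± 1322 against 12574 ± 2312, n = 3; adjusted p = 5.59e-08 in the authors' deposited table, 0.0505 in edgeR) and 3.53-fold in HFD Vehicle (2.08e-07 and 0.0697). With PCN it stood 1.74-fold below Chow (7245 ± 1673; adjusted p = 0.00171 in the authors' deposited table, 0.118 in edgeR). Over vehicle its PCN ratio was 2.04 with ranges that did not overlap, and over HFD 1.58 with ranges that did; neither was called.

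Ugt2b5 was likewise highest in Chow on average, over a narrower range. It had 17541, 10423 and 12903.5 normalized counts in HFD PCN replicates 5, 11 and 27, 8879, 11353 and 5949 in HFD Vehicle replicates 15, 23 and 55, 8812.5, 9146 and 6940.5 in HFD replicates 4, 30 and 38, and 13614, 15871 and 15304 in Chow replicates 8, 17 and 19. The PCN libraries overlapped with those of vehicle and of Chow and lay above those of HFD. Relative to Chow the gene fell 1.80-fold in HFD (adjusted p = 1.88e-06 in the authors' deposited table, 0.0993 in edgeR) and 1.71-fold in HFD Vehicle (0.0226 and 0.415), and with PCN it rose 1.64-fold over HFD (0.0369 and 0.446). Its PCN ratio to vehicle was 1.56 and that to Chow was 0.912; neither was called, and the ratio to Chow was 1.02 without HFD PCN replicate 11.

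None of the 6 tables called Ugt2b36, and its counts in HFD PCN and Chow were not analysed here. It had 9204, 12487 and 5881 normalized counts in HFD Vehicle replicates 15, 23 and 55 and 9918, 10749 and 7233.5 in HFD replicates 4, 30 and 38. The groups overlapped, with a ratio of 0.988 (adjusted p = 0.979 in edgeR). Of the UGT list of 22 genes, 20 had counts. With PCN 4 of them rose over vehicle, 7 over HFD and 6 over Chow, and 3 fell relative to Chow, by the authors' deposited calls. Over all genes tested, 1.07%, 1.90% and 4.43% were called higher in these comparisons, and 3.67% lower relative to Chow. The 3 were Ugt2b1, Ugt3a1 (2.60-fold lower, 1061 ± 347 against 2761 ± 248) and Ugt2a3 (1.62-fold lower, 4523 ± 934.5 against 7329 ± 944).

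The balance between Ugt2b genes was read from raw counts within a library, where the size factor cancels. The pairs were chosen after the values had been seen. There were 1.43, 0.86 and 1.85 Ugt2b35 reads per Ugt2b1 read in HFD PCN replicates 5, 11 and 27, 0.887, 1.01 and 1.24 in HFD Vehicle replicates 15, 23 and 55, 0.72, 0.609 and 0.799 in HFD replicates 4, 30 and 38, and 0.318, 0.321 and 0.33 in Chow replicates 8, 17 and 19. The Chow values stood close together and below all others, and the PCN and vehicle values overlapped. A two-sided exact permutation test of the log2 ratio gave p = 0.50 for PCN against vehicle and p = 0.10, the smallest that 3 against 3 allow, for each of the other 5 comparisons (0.50 and 0.12 adjusted over the 6). The mean ratio was 1.38 ± 0.496 with PCN, 1.05 ± 0.179 with vehicle, 0.709 ± 0.0953 in HFD and 0.323 ± 0.00642 in Chow. Ugt2b35 reads per Ugt2b5 read were 0.708 ± 0.113 with PCN, 0.406 ± 0.0393 with vehicle, 0.382 ± 0.0168 in HFD and 0.271 ± 0.034 in Chow. Other pairs had a lower mean with PCN than with vehicle: Ugt2b34 reads per Ugt2b1 read were 2.8 ± 1.07 with PCN, 3.49 ± 1.12 with vehicle, 2.08 ± 0.241 in HFD and 0.882 ± 0.185 in Chow. Ugt2b5 reads per Ugt2b1 read were 1.9 ± 0.411 with PCN, 2.61 ± 0.631 with vehicle, 1.87 ± 0.292 in HFD and 1.2 ± 0.145 in Chow. For both of these pairs the PCN and vehicle libraries overlapped, and no test was run on pairs other than Ugt2b35 per Ugt2b1.

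**Figure D3:**
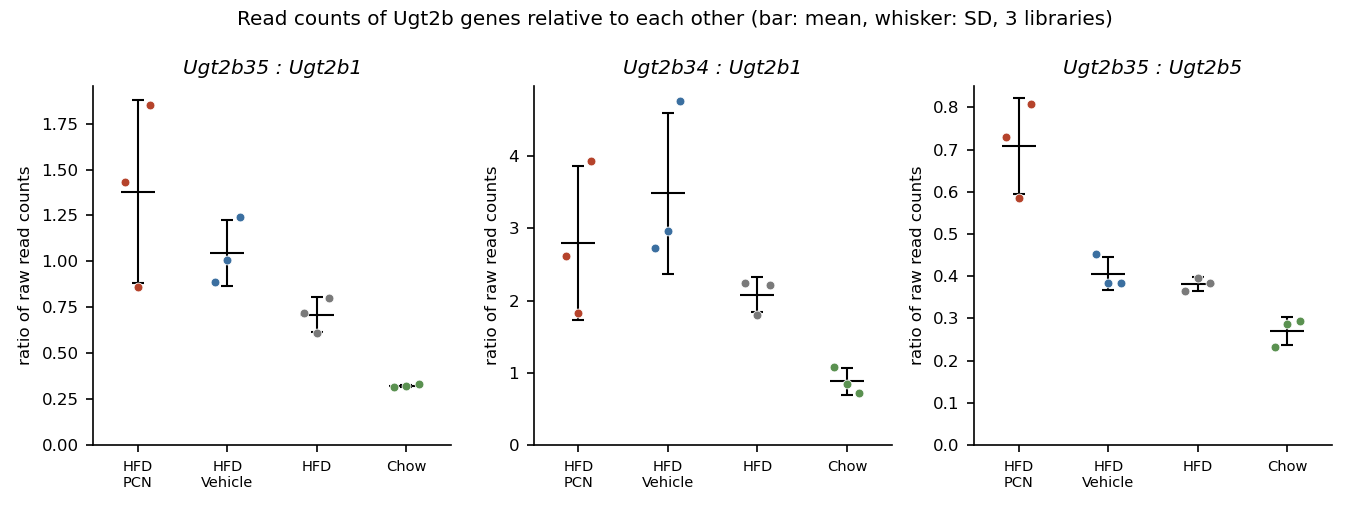
Raw read count of one Ugt2b gene divided by that of another in the same library (points) with the mean and SD of 3 libraries per group, HFD PCN, HFD Vehicle, HFD and Chow from left to right. Ugt2b35 per Ugt2b1 is lowest in Chow, where the 3 libraries lie between 0.318 and 0.33, Ugt2b35 per Ugt2b5 is highest with PCN, and Ugt2b34 per Ugt2b1 has its highest mean with vehicle (3.49).

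Sult1a1, the phenol sulfotransferase and the most abundant of its family per kilobase in HFD livers, had the tightest PCN values. It had 6689, 7031 and 6652.5 normalized counts in HFD PCN replicates 5, 11 and 27, 4568, 3823 and 2219 in HFD Vehicle replicates 15, 23 and 55, 4342, 4187 and 3307 in HFD replicates 4, 30 and 38, and 5270, 4414.5 and 5169 in Chow replicates 8, 17 and 19. The PCN libraries varied by 3.07% (SD over mean) and lay above all 9 others. The gene rose 1.92-fold over vehicle (adjusted p = 0.0207 in the authors' deposited table, 0.34 in edgeR), 1.72-fold over HFD (4.10e-05 and 0.0821) and 1.37-fold over Chow (0.00983 and 0.203). All HFD libraries lay below those of Chow, at a ratio of 0.797 that was not called.

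Sult2a7 belongs to the subfamily that sulfates hydroxysteroids and bile acids. It had 459.6, 244 and 335 normalized counts in HFD PCN replicates 5, 11 and 27, 64.3, 69.4 and 132 in HFD Vehicle replicates 15, 23 and 55, 54.1, 57.9 and 13.3 in HFD replicates 4, 30 and 38, and 34.6, 17.9 and 15.5 in Chow replicates 8, 17 and 19. All PCN libraries were above all vehicle libraries, and these were above all HFD and Chow libraries, which overlapped. With PCN the gene rose 3.91-fold over vehicle (346 ± 108 against 88.7 ± 37.9, n = 3; adjusted p = 6.17e-06 in the authors' deposited table, 0.113 in edgeR), 8.29-fold over HFD (1.46e-12 and 0.0247) and 15.3-fold over Chow (5.33e-31 and 0.003). HFD Vehicle was 3.91-fold above Chow (8.26e-04 in the authors' deposited table, 0.105 in edgeR). The ratio of HFD Vehicle to HFD was 2.12, and the gene was not called there (adjusted p = 0.439 in edgeR; unadjusted p = 0.0325 in the authors' deposited table and 0.0448 in the fit of 4 groups).

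Sult3a1, an amine sulfotransferase with higher expression in female than male mouse liver, was present at few reads. Raw counts were 126, 9 and 121 in HFD PCN replicates 5, 11 and 27, 7, 8 and 3 in HFD Vehicle replicates 15, 23 and 55, 13, 7 and 0 in HFD replicates 4, 30 and 38, and 2, 1 and 1 in Chow replicates 8, 17 and 19. HFD PCN replicate 11 stood near the other groups once divided by its size factor (15.2 normalized counts, against 68.8 and 126 in replicates 5 and 27), yet above the highest library without PCN (7.93). The 0 reads of HFD replicate 38 allow up to 6.66 normalized counts (3 reads; counting error only). The gene rose with PCN 11.9-fold over vehicle (69.9 ± 55.4 against 5.87 ± 2.52 normalized counts; adjusted p = 2.57e-04 in the authors' deposited table, 0.176 in edgeR), 17.3-fold over HFD (1.28e-05 and 0.0875) and 51-fold over Chow (9.21e-11 and 0.0156).

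Summed over a group, the PCN libraries held 256 Sult3a1 reads, against 18 in vehicle, 20 in HFD and 4 in Chow. Per size factor these sums differed 12.8-fold (95% exact interval 7.94 to 22), 14-fold (8.85 to 23.2) and 53.7-fold (20.7 to 198.7), with intervals that cover counting error only. Without HFD PCN replicate 27 the ratios of means were 7.15 over vehicle, 10.4 over HFD and 30.6 over Chow, and without HFD replicate 38 that over HFD was 11.5. As ratios of geometric means, with 1 added to each normalized count, they were 8.04 over vehicle, 14.2 over HFD and 22.2 over Chow. HFD Vehicle and HFD overlapped at a ratio of 1.45, or 0.965 without HFD replicate 38.

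Among the 16 cytosolic SULT genes with counts, Sult1a1, Sult2a7 and Sult3a1 were the genes that rose with PCN over vehicle and over HFD, and 0 fell, by the authors' deposited calls. Over all genes tested, 1.07% and 1.90% were called higher in these comparisons. Over Chow 6 rose, among them Sult1e1, the estrogen sulfotransferase (5.33-fold, 41.6 ± 39 against 7.82 ± 3.92 normalized counts), and Sult1c2 (3.21-fold, 277 ± 63.7 against 86.3 ± 30.5). Sult2a8 fell 1.77-fold relative to Chow (8254 ± 3848 against 14625 ± 1379, adjusted p = 0.0453 in the authors' deposited table). Relative to Chow, 4.43% of all genes tested were called higher with PCN and 3.67% lower. Between HFD and Chow, Sult1c2 was the 1 gene called (2.47-fold higher in HFD), where 2.81% of all genes tested were called higher.

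Ugdh had 7428, 3859 and 7594 normalized counts in HFD PCN replicates 5, 11 and 27, 1859, 2759 and 2107 in HFD Vehicle replicates 15, 23 and 55, 2560, 2593 and 2364 in HFD replicates 4, 30 and 38, and 2492, 2275.5 and 2117 in Chow replicates 8, 17 and 19. All PCN libraries lay above the other 9, which overlapped across vehicle, HFD and Chow. The gene rose 2.81-fold over vehicle (6294 ± 2110 against 2241.5 ± 465, n = 3; adjusted p = 5.70e-05 in the authors' deposited table, 0.145 in edgeR), 2.51-fold over HFD (1.29e-05 and 0.0651) and 2.74-fold over Chow (1.92e-08 and 0.0233). In the fit of 4 groups it passed against all 3 (adjusted p = 0.0174, 0.015 and 0.00468, edgeR).

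Ugdh was the 1 gene of 17 for the supply and breakdown of UDP-glucuronate that was called between PCN and vehicle. In that comparison 1.07% of all genes tested were called higher and 0.641% lower. Over Chow Gusb, the lysosomal enzyme that removes glucuronic acid, rose 1.66-fold (784 ± 54 against 474 ± 74.5), and Ugp2, which makes the UDP-glucose that Ugdh oxidises, rose 1.31-fold (9464 ± 560 against 7199.5 ± 589). Of 12 measured genes for PAPS supply and desulfation, Papss2, a PAPS synthase, rose with PCN 1.82-fold over vehicle (6363 ± 923 against 3495 ± 1065), 2.58-fold over HFD and 2.14-fold over Chow. Arsa, a lysosomal sulfatase, fell 1.65-fold, 2.19-fold and 1.64-fold in the same comparisons, and Suox (sulfite oxidase) fell 1.66-fold relative to HFD and 1.91-fold relative to Chow. These are deposited calls, with adjusted p of 0.0408 for Papss2 and 0.0466 for Arsa between PCN and vehicle in the authors' deposited table. Of all genes tested, 1.90% were called higher and 1.25% lower with PCN relative to HFD, and 4.43% and 3.67% relative to Chow.

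Carriers and receptors were counted beside the enzymes. Of 13 carriers that move conjugates 3 rose with PCN over vehicle and 0 fell: Slco1a4 (6.04-fold), Abcb1a (3.30-fold) and Abcc3, which exports glucuronides to the blood (1.78-fold, 20137 ± 5032 against 11332 ± 2082.5). Of 9 receptors and factors that act on these genes 0 were called between PCN and vehicle by the authors' DESeq2 test. In that comparison 1.07% of all genes tested were called higher and 0.641% lower. Nr1i3, which encodes CAR, rose with PCN 1.64-fold over HFD and 1.65-fold over Chow, and it was 1.55-fold above HFD with vehicle alone (5407.5 ± 826 against 3499 ± 212; adjusted p = 0.0371 in the authors' deposited table, 0.234 in edgeR). Nr1i2, which encodes PXR, rose 1.46-fold with vehicle over Chow, and Hnf4a fell 1.57-fold with PCN and 1.46-fold in HFD relative to Chow.

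**Figure D4:**
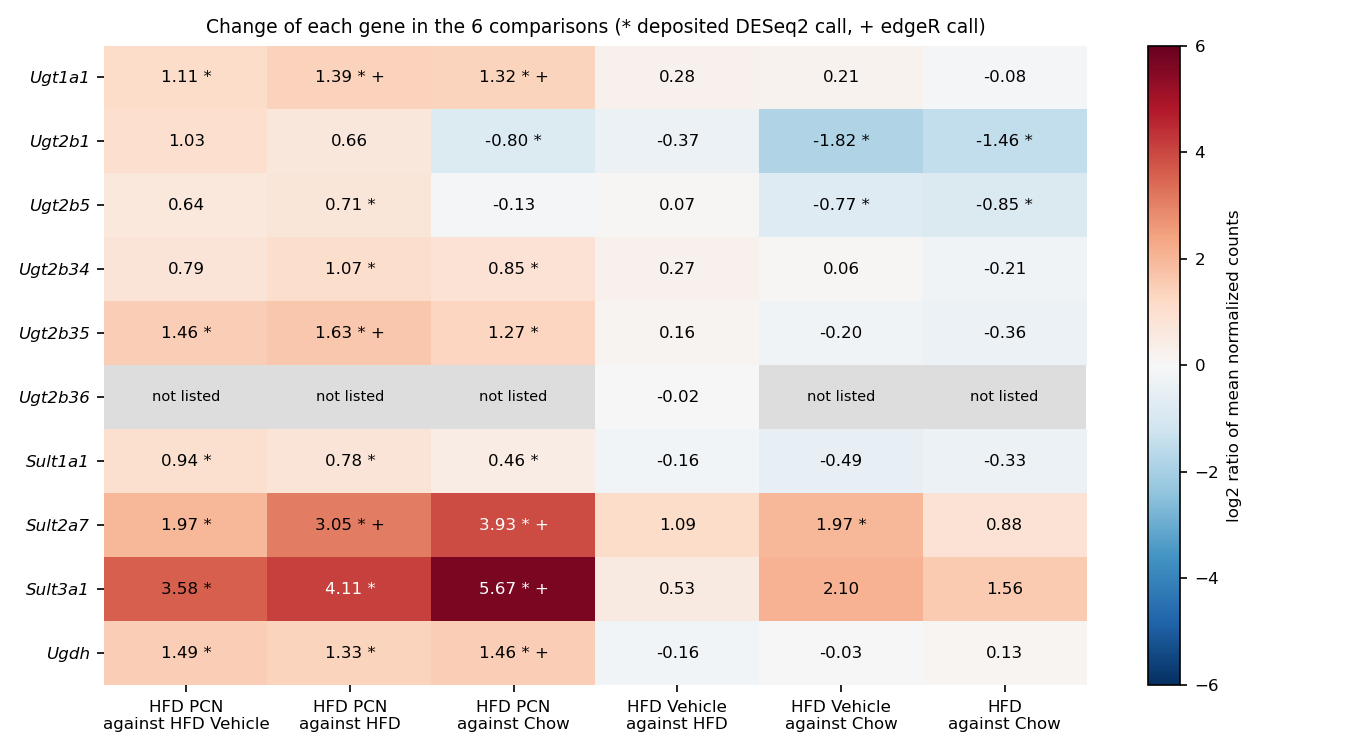
Log2 ratio of mean normalized counts of each gene (rows) in the 6 comparisons (columns, first-named group over the second), with colour from blue (lower) to red (higher). A star marks a call in the authors' deposited DESeq2 tables and a plus an edgeR call. Grey cells have no counts in 1 or both of the groups. Red fills the 3 PCN columns for Sult2a7 (1.97, 3.05 and 3.93) and Sult3a1 (3.58, 4.11 and 5.67), and blue marks Ugt2b1 against Chow (-1.46 in HFD and -1.82 in HFD Vehicle).

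Genes with the most similar profile were found among 1956 genes with counts in 12 libraries, by the root-mean-square difference of centred log2 values over the 12 libraries, as a description. For Ugt1a1 they were Akr1c14 (0.16, where the gene's own spread was 0.61), Cyb5a (0.17) and Aprt (0.20). Akr1c14 and Cyb5a were also among the 3 nearest to Ugt2b34 (0.16 and 0.12, own spread 0.47) and to Ugt2b35 (0.23 and 0.28, own spread 0.71). Ugt2b5 was nearest to Cyp2c68 (0.15, own spread 0.47) and Ugt2b1 to Cyp2c67 (0.37, own spread 0.82). Ugdh was nearest to Gstm4 (0.21, own spread 0.65), Sult1a1 to the ribosomal protein genes Rps25, Rpl37 and Rpl36 (0.19, 0.19 and 0.20, own spread 0.45), Sult2a7 to A2ml1 (0.74, own spread 1.61) and Sult3a1 to Myom3 (0.63, own spread 1.96).

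Markers of liver cell types were read beside these results. Of 9 hepatocyte markers 7 had counts in 12 libraries, and their summed level was 926457 to 1430967 normalized counts with PCN, 1304754 to 2074613 with vehicle, 1534443 to 2121376 in HFD and 2192164.5 to 2456757 in Chow. The sum was lower with PCN than in HFD and Chow. These 7 markers have counts in 12 libraries only because some comparison called them, so their sum does not measure hepatocyte content. The same limit holds for the 3 stellate cell markers. For 3 of 9 stellate cell markers the sum was 1026 to 1666.5 with PCN, 371 to 2327 with vehicle, 2009 to 3256 in HFD and 357 to 460 in Chow. Over all 9 hepatocyte markers HFD Vehicle had 1541928 to 2255636 and HFD 1673294 to 2284168, over 10 macrophage markers 4591 to 6733 and 6446.5 to 10456, over 9 stellate markers 6029 to 9856 and 10201 to 12947, over 8 endothelial markers 4602 to 7005.5 and 7641 to 8350, over 6 cholangiocyte markers 336 to 795 and 356 to 948, and over 8 lymphocyte and granulocyte markers 383 to 567 and 440 to 786. Of these markers Ly6g alone had 0 reads in HFD. The part of cell composition in the results was not tested.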

How the data were processed

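The genes and lists described here were chosen with earlier results of these data known. For each pair of groups the authors deposited raw counts per gene beside DESeq2 output (log2 fold change with its standard error, p-value, adjusted p-value), per the file headers, in 6 tables. The submitters' processing notes name HISAT2, HTSeq, DESeq2 and GRCm38/mm10, and no version or setting is given in the sources used here. The table of HFD Vehicle against HFD held 26015 genes, and the other 5 held only genes with a deposited adjusted p under 0.05; none (0) of 15768 counts found in more than 1 of them differed. Each library's size factor was solved from its counts and the deposited group means (at most 0.52% apart between tables), and the number of genes tested was estimated from p and adjusted p. For those 5 comparisons the call is the authors' deposited adjusted p under 0.05; their deposited log2 values are moderated toward 0, so ratios of group means are given. For the complete table the test was the edgeR 4.0.16 quasi-likelihood test (R 4.3.3, TMM scaling, expression filter, Benjamini-Hochberg adjustment over all genes), two-sided. Listed genes of the other tables were tested again with edgeR, with a dispersion prior taken from that table and adjustment over all genes tested; this and the 4-group fit, an alternative chosen after seeing the data, can only test genes that some table lists. Leaving out each library and a DESeq2 1.42.0 refit were further alternatives. On simulated data with the libraries of HFD Vehicle against HFD, edgeR recovered 93.3% of 195 genes changed 4-fold among 13495 genes. The test of listed genes recovered 92.5% of 200 among 800. The simulation drew counts from the dispersion trend alone, without spread particular to a gene. It used no PCN or Chow library and no smaller change, so it does not give the recovery for changes below 4-fold reported here. Gene positions and exons came from GENCODE mouse release 21, which gave the deposited position for 95.5% of identifiers. All 10 genes were named in each comparison, with up to 4 called genes of each list chosen by fold; some results are not reported here. Python 3.11.15, pandas 2.3.3 and scipy 1.17.1 were used.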

Additional observations from a re-analysis of the deposited data

How the results depend on the processing

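The number of the 10 genes called depended on the test. The authors' deposited DESeq2 results called 6, 8, 8, 3 and 2 for PCN against vehicle, HFD and Chow, vehicle against Chow and HFD against Chow. Over all genes they called 442, 809, 2032, 790 and 1226. The edgeR test of listed genes gave 0, 3, 4, 0 and 0, where it called 25, 189, 826, 117 and 154 genes in all. The 4-group edgeR fit gave 3, 5, 5, 1 and 0, where it called 153, 281, 1167, 234 and 190 genes in all. The cause was not tested. Leaving out each replicate in the edgeR test of listed genes gave 0 to 2, 0 to 5, 1 to 6, 0 to 0 and 0 to 1. In the first 3 the highest was without HFD PCN replicate 11, where 36, 192 and 774 of all listed genes were called. Without each other replicate 7 to 17, 18 to 73 and 216 to 278 were called. A deposited adjusted p under 0.01 kept 5, 7, 8, 2 and 2. For HFD Vehicle against HFD the count was 0 in edgeR, with DESeq2 size factors, without a filter on low counts, in the 4-group fit, in a DESeq2 refit, in the deposited results and without each replicate. All 395 alternative ratios for 55 gene and comparison pairs stayed within 1 SD of the value reported. With 3 libraries per group, leaving out 1 can hardly move a ratio that far, so this says little about robustness. The SD is wide for Sult3a1, whose PCN ratio to Chow was 51 from means and 22.2 from geometric means. No called gene turned direction, while some uncalled ones did, such as Ugt2b5 between HFD PCN and Chow. The low depth (11.5 M reads) of HFD PCN replicate 11 and the few Sult3a1 reads limit precision. No paired analysis was possible because the groups share no replicate numbers.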
